A study of Homo sapiens with 12 samples.

Results

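The response to serum withdrawal was compared between CFPAC-1 and BxPC-3, established lines of human pancreatic ductal adenocarcinoma. All 12 libraries of the series entered the comparison, with 3 each of Cfpac-1_control, Cfpac-1_cilia, BXPC-3_control and BXPC_3_cilia. The induced (cilia) cells had 48 h without serum, which makes them grow primary cilia, and the labels name no treatment of the control cells. Serum withdrawal and cilium growth come together in every induced library and cannot be told apart. The series text puts the ciliated share at 7% before and 39% after starvation in CFPAC-1, and at 5% and 78% in BxPC-3, with no error given. The measure is a difference of changes, (induced minus control in BxPC-3) minus (induced minus control in CFPAC-1), on log2(FPKM + 1), where FPKM is fragments scaled by transcript length and by the total of mapped fragments. A positive value means that the gene moved further upward, or less far downward, in BxPC-3. Genes with FPKM of at least 1 in 3 or more libraries were tested, 12860 of 60564 in the table.

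Serum supplies growth factors, and cells deprived of it leave the division cycle, lower the making of ribosomes and lipids, and turn to stress programmes. FOXO factors, freed by weak growth factor signalling, raise a set of brake genes. The integrated stress response works through ATF4 and its target DDIT3, NRF2 guards against oxidants, and HIF factors turn on glycolysis and oxygen-sparing genes when prolyl hydroxylases are inactive. A primary cilium is a single antenna built on the mother centriole, mostly in resting cells, and is resorbed when cells divide again.

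The libraries did not all sit with their labels, and this bears on every result. Across tested genes, control 2 and control 3 of CFPAC-1 had correlations of 0.814 with control 1 and of 0.799 with the induced CFPAC-1 libraries, whereas that of control 1 with the latter was 0.932. BxPC-3 control 1 likewise lay closer to the induced BxPC-3 libraries (0.963) than to its own control 2 and 3 (0.95). FOSL1, a serum-induced transcription factor, had 34.5 FPKM in BxPC-3 control 1 against 307 and 283 in the other controls, and ATF3, a stress-induced one, 1.74 against 24.4 and 22.8. KRT19, a duct keratin, stood at 7.42 and 7.67 FPKM in control 2 and 3 and between 254 and 627 FPKM in the other CFPAC-1 libraries, and EPCAM, an epithelial adhesion protein, at 0.963 and 1.04 against 11.2 to 14.8 FPKM. KRT7 (395 to 586 FPKM) and CDH1 (38.2 to 61.0 FPKM) were high in BxPC-3 and at most 2.01 and 0.892 FPKM in CFPAC-1, and the channel gene CFTR was at most 0.0181 FPKM in all 12. The leukocyte marker PTPRC was at most 0.00981 FPKM in all 12. Each test was therefore run on all 12 libraries and again on 10, with control 1 as the only CFPAC-1 control. The second fit takes the lone control to vary like the other groups, so its p-values hold no spread between CFPAC-1 controls. Whether the 3 libraries of a group stem from separate cultures is not in the labels. The p-values therefore reflect variation among libraries only, and it may be technical.

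With control 1 as the CFPAC-1 control, 222 of 12860 genes changed in CFPAC-1 (1.73%), 136 up (1.06%) and 86 down (0.669%), and 52 changed in BxPC-3 (0.404%), 49 up (0.381%) and 3 down (0.0233%), at a Benjamini-Hochberg adjusted p under the threshold of 0.05 in limma. The change differed between the lines for 55 genes (0.428%), 23 positive (0.179%) and 32 negative (0.249%), and 2126 had an unadjusted p under 0.05. On all 12 libraries 2138 genes changed in CFPAC-1 (16.6%; 7.85% up and 8.77% down) and 43 in BxPC-3 (0.334%; 0.295% up and 0.0389% down), and 315 differed (2.45%), 172 positive (1.34%) and 143 negative (1.11%), with 3121 differences at an unadjusted p under 0.05. Across tested genes the changes in the lines correlated weakly, at r = 0.067 with control 1 and at 0.113 with all 12, and had the same sign for 49.4% and 49.8% of genes. Genes of 1 sample are not independent, so these values are descriptions. With each library centred on its median, the split of the difference was 8 positive to 34 negative with control 1 and 63 to 202 with all 12, and after quantile normalization 17 to 41 and 90 to 160. The median difference over all tested genes was 0.13 with control 1 and 0.16 with all 12, and 0.00 with all 12 after centring.

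Genes were then sorted. A response was called shared where the gene passed the test in both lines in the same direction, opposite where the difference passed and the changes had opposite signs of at least 0.5 each, and limited to a line where the difference and exactly 1 line passed. With control 1, 6 genes were shared (0.0467%), 42 were CFPAC-1 only (0.327%; 25 up, 17 down), 2 were BxPC-3 only (0.0156%) and 10 were opposite (0.0778%). The fit of all 12 libraries gave 7 shared (0.0544%), 223 CFPAC-1 only (1.73%), 20 BxPC-3 only (0.156%) and 65 opposite genes (0.505%), and 7 more (0.0544%) passed for the difference alone. Both fits put 4 shared, 23 CFPAC-1 only, 1 BxPC-3 only and 4 opposite genes in the same class. These counts rest on single libraries. The 55 differing genes became 4 or 5 when control 2, control 3, induced 2 or induced 3 of BxPC-3 was omitted, and 7 or 4 when induced 2 or 3 of CFPAC-1 was. Without BxPC-3 control 1, BxPC-3 induced 1 or CFPAC-1 induced 1 they numbered 632, 112 and 264. DDIT3, HMOX1, CA9 and MPZL1 passed for the difference in each of these 9 leave-outs and in every alternative setting with control 1 in which they were tested.

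**Figure D1:**
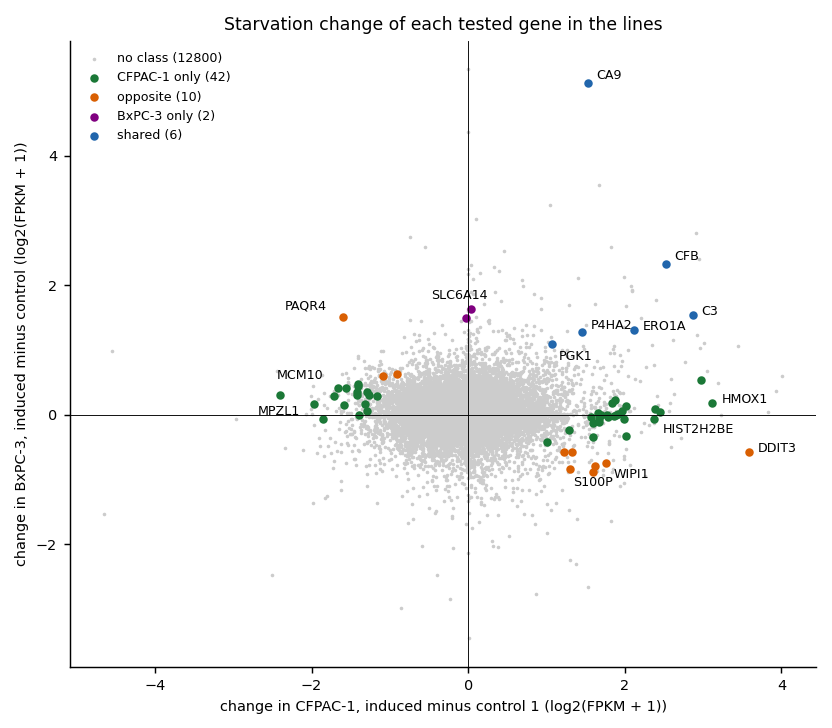
Change of each of the 12860 tested genes in CFPAC-1 (x axis, induced mean minus control 1) and in BxPC-3 (y axis, induced mean minus control mean), both in log2(FPKM + 1); point colours give the class of the fit with control 1 alone. The 6 shared genes lie to the upper right, the 25 genes that rose in CFPAC-1 only lie along the horizontal axis to the right, and the 10 opposite genes lie in the upper left and lower right.

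All shared genes rose. They comprise PGK1 (phosphoglycerate kinase of glycolysis), P4HA2 (a collagen prolyl hydroxylase subunit), ERO1A (which re-oxidises protein disulfide isomerase in the endoplasmic reticulum), CA9 (a membrane carbonic anhydrase), C3 (the central complement component) and CFB (complement factor B) with control 1. In the fit of all 12, ENO2 (neuronal enolase), QSOX1 (a sulfhydryl oxidase) and PAM (which amidates peptides) joined and C3 and CA9 were not shared. PGK1, P4HA2, ERO1A, CA9 and ENO2 stand on the list of glycolysis and hypoxia genes. The 250 bases upstream of the start site, from RefSeq on GRCh38.p14, are shown for 4 of the shared genes, since HIF factors are known to bind the core ACGTG or GCGTG. The core ACGTG is also part of the palindrome CACGTG, which other factors bind. Capitals mark either core on either strand. The windows are chrX:78103998-78104247 (plus strand) for PGK1, chr9:35673678-35673927 (plus) for CA9, chr14:52695559-52695808 (minus) for ERO1A and chr12:6914330-6914579 (plus) for ENO2, each written along the strand of its gene.
PGK1: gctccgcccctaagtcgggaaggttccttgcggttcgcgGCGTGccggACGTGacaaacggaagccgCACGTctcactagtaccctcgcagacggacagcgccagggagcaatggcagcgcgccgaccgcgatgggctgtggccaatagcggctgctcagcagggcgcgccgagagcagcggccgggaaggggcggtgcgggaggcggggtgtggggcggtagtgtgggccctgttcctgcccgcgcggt
CA9: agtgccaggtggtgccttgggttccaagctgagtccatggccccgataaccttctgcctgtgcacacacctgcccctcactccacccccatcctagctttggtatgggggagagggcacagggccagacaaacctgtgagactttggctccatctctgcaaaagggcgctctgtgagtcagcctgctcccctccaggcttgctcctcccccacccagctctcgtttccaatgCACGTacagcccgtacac
ERO1A: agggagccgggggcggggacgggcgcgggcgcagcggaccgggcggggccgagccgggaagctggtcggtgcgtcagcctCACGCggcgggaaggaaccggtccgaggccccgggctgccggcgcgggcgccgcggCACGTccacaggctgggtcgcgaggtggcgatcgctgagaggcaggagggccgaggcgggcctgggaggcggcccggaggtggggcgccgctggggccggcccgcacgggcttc
ENO2: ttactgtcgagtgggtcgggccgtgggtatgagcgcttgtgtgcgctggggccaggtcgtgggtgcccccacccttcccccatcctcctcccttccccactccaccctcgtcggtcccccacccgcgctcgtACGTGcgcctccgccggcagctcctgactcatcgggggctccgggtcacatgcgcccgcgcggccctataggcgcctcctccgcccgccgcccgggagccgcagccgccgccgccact
Of the 9 genes shared in either fit, 8 have an entry and 6 of these hold a match. P4HA2 and CFB hold none. Each window precedes a single RefSeq start, and those of P4HA2, CFB, PGK1, ERO1A, ENO2 and PAM lie inside the annotated gene. Other starts of these genes were not searched. The bases after the start lay in a reference transcript for 7 of 12 genes looked at, MCM6, MCM10, POLE2 and PRIM1 included. Of all 27305 promoter windows of this length 43.1% hold a match, and of the 8822 of tested genes 58.3%, so a match is common in such windows and is given as a description of the sequence.

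PGK1 (chromosome X, 77910739 to 78129296) had 122, 97.6 and 99.5 FPKM in the CFPAC-1 controls, against 254, 256 and 260 FPKM after starvation. In BxPC-3 it went from 196, 152 and 149 to 351, 347 and 357 FPKM. Control and induced libraries did not overlap in either line, and the CFPAC-1 controls that stand apart lay a little below control 1. The log2 change was 1.07 in CFPAC-1 (limma, Benjamini-Hochberg adjusted p = 0.0423) and 1.09 in BxPC-3 (0.0168), and the difference was 0.02 with a 95% interval of -0.56 to 0.61. P4HA2 (chromosome 5, 132191838 to 132295315) was at 1.60, 1.89 and 1.95 FPKM and then at 7.00, 5.75 and 5.61 FPKM in CFPAC-1, and at 5.82, 5.07 and 4.68 and then 14.5, 14 and 13.4 FPKM in BxPC-3. It rose by 1.45 and 1.28 (adjusted p = 0.014 and 0.0123), with a difference of -0.17 and an interval of -0.75 to 0.41. Both genes started higher in BxPC-3, and for both the interval of the difference in rise holds 0.

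ERO1A (chromosome 14, 52639916 to 52695900) had 13.9, 8.72 and 9.01 FPKM in the CFPAC-1 controls, against 86.2, 49.5 and 60.0 FPKM after starvation. In BxPC-3 it was at 22.6, 22.8 and 26.1 and then at 66.6, 57.4 and 57.7 FPKM. It rose by 2.11 and 1.31 log2 units (limma, adjusted p = 0.0118 and 0.0305), with a difference of -0.80 and an interval of -1.60 to -0.01, not past the test over all genes (0.298). CFB (chromosome 6, 31945650 to 31952084) went from 2.56, 0.126 and 0.0406 to 17, 20.8 and 20.8 FPKM in CFPAC-1, and from 6.17, 3.17 and 3.38 to 29.5, 23.1 and 21.7 FPKM in BxPC-3. Against control 1 its rises were 2.52 and 2.33 (0.0102 and 0.00724), with a difference of -0.19 and an interval of -1.08 to 0.69. C3 (chromosome 19, 6677704 to 6730562) rose by 2.86 and 1.54, from 1.82 FPKM in CFPAC-1 control 1 to between 18.8 and 20.5, and from a range of 31.8 to 50.3 to one of 82.0 to 131 FPKM in BxPC-3. Its difference of -1.32 was not past the test with control 1 (0.164) and was -2.23 with all 12 (0.0441). ENO2, QSOX1 and PAM, shared with all 12, rose in BxPC-3 in the fit with control 1 as well (1.91, 1.30 and 1.05) and had 2.09, 1.27 and 0.78 in CFPAC-1 there (0.0599, 0.0645 and 0.0977). ENO2 went from 5.13, 2.96 and 2.89 to 38.9, 16.1 and 25.2 FPKM in CFPAC-1 and from 1.46, 0.974 and 1.10 to 11.4, 5.86 and 5.39 FPKM in BxPC-3. In each of these 3 genes the interval of the difference holds 0. The 6 shared genes became 0 without BxPC-3 control 2 or induced 3 and 36 without BxPC-3 control 1.

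CA9 rose in both lines and yet differed between them. In BxPC-3 it went from 1.21, 0.783 and 1.11 FPKM to 57.5, 77.5 and 77.2 FPKM, and in CFPAC-1 from 84.2 FPKM in control 1 to 189, 293 and 263 FPKM. It was listed at 0 in CFPAC-1 control 2 and 3. Thus control 1 of CFPAC-1 already lay above every induced BxPC-3 library. With control 1 the rises were 1.52 and 5.13 log2 units (limma, adjusted p = 0.0382 and 5.33e-06), and the difference was 3.61 ± 0.36 (SE; 0.00713). From all 12 libraries the difference was -0.67 (0.842), and it was 3.57 within libraries numbered 1 and -2.78 within numbers 2 and 3. The sign of the CA9 difference therefore follows the CFPAC-1 control that is used.

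Shared direction was wider in the hypoxia list than the shared calls show. Of 39 tested members, 34 had a positive change in CFPAC-1 against control 1, 34 in BxPC-3 and 29 in both, where 26.9% of all tested genes were positive in both. With control 1, 5 rose and 1 fell in CFPAC-1, beside 1.06% and 0.669% of all tested genes (medians 1.02 for the list and -0.05 for all genes). In BxPC-3 9 rose and 0 fell, beside 0.381% and 0.0233% (0.61 and 0.06). The median difference was -0.17, and -0.63 with all 12. For the difference 2 members passed on the positive and 1 on the negative side with all 12, beside 1.34% and 1.11% of all tested genes. NDRG1, a stress gene of differentiated epithelium, rose in CFPAC-1 (2.96, adjusted p = 0.0173) and had a change of 1.04 in BxPC-3 (0.274). LDHA (lactate dehydrogenase A) rose in BxPC-3 (1.34, 0.0297) and had 0.59 in CFPAC-1 (0.328), with a difference of 0.75 that was not past the test (0.331). CA9 alone of the list passed for the difference with control 1, and VEGFA, LOX and HIF1A with all 12. GAPDH and ENO1, the members of highest level, had differences of -0.24 and 0.34 (0.771 and 0.58). HIF1A, the oxygen-labile subunit of HIF itself, fell in CFPAC-1 (-1.34, 0.0457) from 6.85 FPKM in control 1 to 3.07, 1.53 and 1.91 FPKM and had 0.20 in BxPC-3 (0.743), at 46.8 to 63.6 FPKM.

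Without a test, 33 genes (0.257%) changed at least 2-fold upward with no overlap of libraries in both lines, taking control 1 as the CFPAC-1 control, and 37 (0.288%) with all 12. In a single line, 536 (4.17%) went up and 484 (3.76%) down in CFPAC-1 against control 1, 598 (4.65%) and 482 (3.75%) with all 12, and 131 (1.02%) and 47 (0.365%) in BxPC-3. Without a size limit, control 1 lay outside the induced CFPAC-1 libraries for 60.9% of genes, all 3 controls did for 31.6%, and the BxPC-3 groups did not overlap for 17.2%. Besides the genes above they hold further hypoxia genes (ANGPTL4, EGLN3, P4HA1, BNIP3L) and secreted defence proteins. SAA1, an acute-phase apolipoprotein, was at 0.576 FPKM in CFPAC-1 control 1 and at 2.90, 19.7 and 19.4 FPKM after starvation, and at 40.8, 15.7 and 13.9 and then 50.1, 272 and 259 FPKM in BxPC-3. LCN2, which withholds iron from bacteria, was at 18.1 FPKM and then 92.9, 54.1 and 58.6 FPKM in CFPAC-1, and at 88.7, 51.4 and 53.2 and then 111, 766 and 644 FPKM in BxPC-3. In BxPC-3 both genes were far lower in induced library 1 than in 2 and 3, and neither passed in either line (adjusted p of 0.163 to 0.316). Of 36 defence and inflammation genes 25, and of 37 interferon and antigen presentation genes 26, had positive changes in both lines. Their medians were 0.84 and 0.64 in CFPAC-1, 0.50 and 0.28 in BxPC-3, and -0.47 and -0.35 for the difference. SLPI, a protease inhibitor and the most abundant defence gene, had a difference of 0.78 with control 1 and of -4.16 with all 12 (0.551 and 0.248), so its sign turned with the control. IFITM3, which blocks viral entry, had -1.09 with control 1 and 0.90 with all 12 (0.146 and 0.543).

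No gene fell in both lines by the test, and 51 had an unadjusted p under 0.05 in both with control 1 (71 with all 12). The genes of smallest p were MAP3K14 (a kinase of the non-canonical NF-kB pathway), DNMBP (a CDC42 activator) and VCL (vinculin of focal adhesions), none past the test. Their changes were -0.84, -1.13 and -1.01 in CFPAC-1 and -0.59, -0.83 and -0.70 in BxPC-3, with adjusted p between 0.0924 and 0.0969 and between 0.212 and 0.24. Sorted by libraries, 4 genes (0.0311%) went down at least 2-fold in both, and 5 (0.0389%) with all 12. Those with control 1 were KRT8 and the mitochondrial transfer RNAs MT-TH, MT-TS2 and MT-TL2. Opposite moves of that size were seen in 2 genes up in CFPAC-1 and down in BxPC-3 (0.0156%), MYADM and TNFAIP2, and in 1 the other way (0.00778%), PAQR4. With all 12 they numbered 1 (0.00778%) and 2 (0.0156%). KRT8, a keratin of simple epithelia, went from 274 to 50.7, 148 and 185 FPKM in CFPAC-1 and from 80.2, 149 and 131 to 43.1, 56.5 and 63.2 FPKM in BxPC-3 (adjusted p = 0.312 and 0.359).

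**Figure D2:**
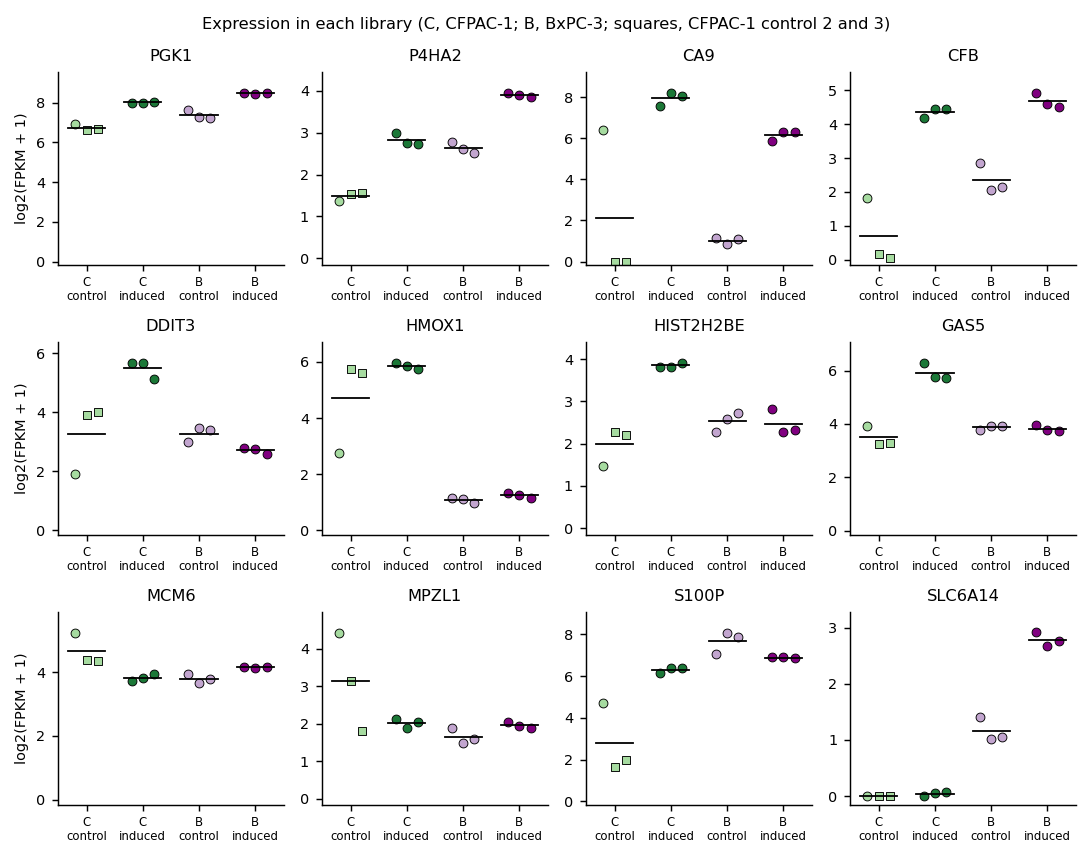
Expression of 12 genes in each library, in log2(FPKM + 1); bars are means of 3 libraries and squares mark CFPAC-1 control 2 and 3. PGK1 and P4HA2 move alike in both lines, CA9 starts high in CFPAC-1 control 1 and is listed at 0 in control 2 and 3, and DDIT3, HIST2H2BE and GAS5 are higher after starvation in CFPAC-1 and not in BxPC-3.

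The change differed between the lines in both fits for 29 genes (0.226%), 9.21% of the calls with all 12 libraries and 52.7% of those with control 1. Of these, 21 moved further upward in CFPAC-1 and 8 further upward in BxPC-3. All 21 rose in CFPAC-1, and 10 of them were under 1 FPKM in every BxPC-3 library. Of the 29, 7 reached 1 FPKM in libraries of a single group, 6 of them negative and 1 positive, and so passed the filter through that group alone. The counts of the 29 are therefore a description. For a gene at such levels in BxPC-3 the difference is nearly the CFPAC-1 change with its sign turned. In 28 of the 29 genes CFPAC-1 control 2 and 3 lay beyond all induced CFPAC-1 libraries. They did so on the side on which control 1 lay from the induced mean. SLC6A14 is the exception, at 0 FPKM in the CFPAC-1 controls and in induced library 1. In CD14 control 1 itself (0.372 FPKM) lay within the induced range of 0.318 to 0.393 FPKM.

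DDIT3 had the largest difference of the 29 with control 1. It encodes CHOP, a transcription factor of the integrated stress response (chromosome 12, 57516588 to 57521737). The CFPAC-1 controls had 2.75, 14.2 and 15.1 FPKM, against 50.0, 50.3 and 33.8 FPKM after starvation, and BxPC-3 had 6.96, 10.0 and 9.45 and then 5.91, 5.69 and 5.02 FPKM. The induced libraries lay above all controls in CFPAC-1 and below all controls in BxPC-3. DDIT3 rose in CFPAC-1 by 3.59 (limma, adjusted p = 0.00158) and had -0.57 in BxPC-3 (0.305), and the difference was -4.16 ± 0.35 (SE; 0.00259). It was -2.79 ± 0.64 with all 12 (0.0466), with values of -3.97 within libraries numbered 1 and -2.19 within numbers 2 and 3. With all 12 libraries the call was lost in 10 of 12 leave-outs, with adjusted p of up to 0.138.

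Besides DDIT3, the ATF4 and amino acid list has 31 tested members. Of these, 3 rose and 1 fell in CFPAC-1 against control 1, beside 1.06% and 0.669% of all tested genes, and 0 changed in BxPC-3, beside 0.404%. Their medians were 0.08 and -0.30, and the median difference was -0.33. The difference was negative for 23 of 31 with control 1, beside 40.3% of all genes, and for 19 with all 12. None of the 31 passed for it with control 1 and 1, TRIB3, did with all 12. NUPR1, a stress-induced chromatin protein, rose in CFPAC-1 by 2.30 (limma, adjusted p = 0.0382). SESN2 (which restrains mTORC1) and CHAC1 (which degrades glutathione) rose in CFPAC-1 by 1.88 and 1.60 (limma, adjusted p = 0.0382 and 0.0453) and had -0.25 and -0.18 in BxPC-3 (0.754 and 0.808). Their differences of -2.13 and -1.79 were not past the test (0.0721 and 0.0884). PSAT1, of serine synthesis, fell in CFPAC-1 by 1.13 (0.0409) and had -0.30 in BxPC-3 (0.484). ATF4 itself stood at 81.5 FPKM in CFPAC-1 control 1 and at 157 to 161 FPKM after starvation, and had a difference of -1.65 (0.132). Among the 40 autophagy and lysosome genes the median difference was -0.10 with control 1 and 0.07 with all 12, beside 0.13 and 0.16. SQSTM1, the p62 receptor, and WIPI1, of the phagophore, passed with control 1 (-1.90 and -2.51), beside 0.249% of all tested genes on that side. Neither passed with all 12 (limma, adjusted p = 0.0912 and 0.206). In that fit 1 member passed on each side, beside 1.34% and 1.11%.

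HMOX1, heme oxygenase 1 (chromosome 22, 35380361 to 35394214), gave a difference that only control 1 carries. It was not named by the rule and is described because it passed in all leave-outs with control 1. CFPAC-1 control 1 had 5.73 FPKM and controls 2 and 3 had 52.5 and 48.2 FPKM, against 61.7, 57.5 and 53.3 FPKM after starvation. In BxPC-3 it was at 1.21, 1.16 and 0.977 and then at 1.52, 1.41 and 1.24 FPKM. The difference was -2.94 ± 0.24 (SE; limma, adjusted p = 0.00259) with control 1 and -0.99 (0.485) with all 12, and it was 0.03 within numbers 2 and 3. Of the 30 NRF2 and aldo-keto reductase genes, AKR1C1 and AKR1C2 also passed with control 1 (-1.72 and -1.88), beside 0.249% of all tested genes on that side. These near-identical neighbours reduce steroids and carbonyls and may share reads. In CFPAC-1 they went from 58.7 and 54.3 FPKM in control 1 to ranges of 175 to 183 and 213 to 229 FPKM, were at most 0.0168 FPKM in control 2 and 3, and stayed between 3.90 and 11.2 FPKM in BxPC-3. The ferritin chains FTH1 and FTL, the most abundant of the list, had differences of -1.20 and -1.12 with control 1 (0.193 and 0.29), and FTH1 passed with all 12 (-2.05, 0.048).

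Most histone genes on the list rose in CFPAC-1, and few passed for the difference between the lines. The 13 tested members encode core and linker histones, whose replication-dependent transcripts mostly lack a poly(A) tail. In CFPAC-1 8 rose and 0 fell against control 1, beside 1.06% and 0.669% of all tested genes. In BxPC-3 0 passed, beside 0.404%, and 11 of 13 had positive changes. The medians were 1.96 and 0.60. For the difference 2 members passed with control 1, beside 0.249% of genes on that side, and 4 with all 12, beside 1.11%. The difference was negative for 13 of 13 with control 1 (median -1.69) and for 11 of 13 with all 12 (-1.64), where 40.3% of all tested genes were negative with control 1. HIST2H2BE (chromosome 1, 149884459 to 149886652) went from 1.79, 3.88 and 3.65 to 13.2, 13.1 and 14.1 FPKM in CFPAC-1 and from 3.87, 5.01 and 5.65 to 6.08, 3.87 and 4.00 FPKM in BxPC-3. All 3 CFPAC-1 controls lay far below the induced libraries, and the BxPC-3 groups overlapped. The difference was -2.43 ± 0.33 (SE; limma, adjusted p = 0.0397), and -1.92 with all 12 (0.0234). HIST1H2BG (chromosome 6, 26215159 to 26216692) reached 1 FPKM in the induced CFPAC-1 libraries alone and so entered the test through them. Without it 7 of 12 members rose in CFPAC-1, the median difference was -1.52, and 1 and 3 members passed for it with control 1 and with all 12. HIST1H2BG gave -2.40 (0.0419) and -2.48 (0.00903), from 0.736, 0.630 and 0.566 to 5.76, 9.47 and 11.1 FPKM in CFPAC-1, and was at most 0.102 FPKM in BxPC-3. HIST1H1C, the most abundant member, rose in CFPAC-1 (3.45, 0.0241) from 28.4 FPKM to 204, 417 and 383 FPKM, had 1.06 in BxPC-3 (0.344), and its difference of -2.39 was not past the test (0.156). Histone genes are near-identical and may share reads. Beside them, the median difference was 0.88 both for the 13 mitochondrially encoded mRNAs and for the 13 small nuclear, nucleolar and 7SL RNAs. Within numbers 1 and within numbers 2 and 3 these medians were 1.77 and -0.47, and -0.42 and 0.89. HIST1H2BK, which makes a polyadenylated transcript as well, had a difference of -0.46 (0.708). MT-CO1 and RN7SL1, the most abundant members of the other lists, had 0.55 and 0.88 (0.591 and 0.753). The part of RNA selection or quality in the histone result was not tested.

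Genes of the translation apparatus had positive changes in CFPAC-1 and changes near 0 in BxPC-3. Of 51 ribosomal protein genes, 51 had a positive change in CFPAC-1 against control 1 (median 0.77), beside 44.6% of all tested genes, and 22 in BxPC-3 (-0.03), beside 59.1%. The difference was negative for 50 with control 1 (median -0.79), beside 40.3% of all genes, for 48 with all 12 (-0.61) and for 43 within numbers 2 and 3, and 1 or 0 members were positive after quantile normalization or centring. With all 12 libraries 23 members rose and 0 fell in CFPAC-1, beside 7.85% and 8.77% of all tested genes. Few passed for the difference, where 1.11% of all tested genes were past on the negative side in that fit. RPL12 and RPL28 rose in CFPAC-1 with control 1, 0 members passed for the difference there, and RPL12 and RPL13 passed for it with all 12. RPL12 went from 277, 350 and 346 to 616, 606 and 561 FPKM in CFPAC-1 and from 436, 482 and 442 to 337, 437 and 390 FPKM in BxPC-3, with a difference of -1.11 (limma, adjusted p = 0.0369) and of -1.33 with control 1 (0.0634). RPS2 and RPS12, the most abundant members, had -0.43 and -0.95 with control 1, and RPS12 had 0.07 with all 12. Ribosomal protein genes have many pseudogenes that may share reads.

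GAS5 and NOP53, which were named for their differences, belong to the same machinery. GAS5 (chromosome 1, 173863900 to 173868882) is a noncoding host of small nucleolar RNAs, named for its level in growth-arrested cells. It went from 14.3, 8.59 and 8.73 to 77.3, 53.6 and 51.6 FPKM in CFPAC-1 and from 12.7, 14.4 and 14.2 to 14.5, 12.6 and 12.2 FPKM in BxPC-3. It rose in CFPAC-1 by 1.99 (limma, adjusted p = 0.0106) and its libraries overlapped in BxPC-3, with a difference of -2.05 ± 0.32 (SE; 0.0419) and of -2.50 with all 12 (0.00903). NOP53 (chromosome 19, 47745522 to 47757058), a ribosome assembly factor, went from 21.3, 22.3 and 23.3 to 66.5, 70.5 and 61.8 FPKM in CFPAC-1 and from 36.0, 49.5 and 43.5 to 35.7, 34.3 and 30.7 FPKM in BxPC-3. All 3 CFPAC-1 controls were alike, and the difference was -1.93 ± 0.28 (0.0407), or -1.87 with all 12 (0.00903). With control 1 both passed in 3 of 9 leave-outs, and with all 12 libraries in 11 of 12.

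Among the further genes named, GAST and EFEMP2 were near silent in BxPC-3. GAST reached 1 FPKM in the induced CFPAC-1 libraries alone, so it was tested only because it is high there, and its values are a description. GAST, the gastrin hormone gene (chromosome 17, 41712326 to 41715969), went from 0.748, 0 and 0 to 6.81, 9.78 and 7.95 FPKM in CFPAC-1 and was at most 0.427 FPKM in BxPC-3. EFEMP2, an elastic fibre protein (chromosome 11, 65866441 to 65873592), went from 1.50, 1.21 and 1.18 to 7.73, 10.5 and 8.33 FPKM and was at most 0.682 FPKM in BxPC-3. Their differences were -2.30 and -1.91 with control 1 (limma, adjusted p = 0.0407 and 0.0419) and -2.83 and -2.04 with all 12 (both 0.00903). HLA-E, the ligand of an inhibitory receptor of natural killer cells (chromosome 6, 30489467 to 30494205), was well expressed in both lines. It went from 37.2, 60.4 and 59.9 to 125, 154 and 143 FPKM in CFPAC-1 and from 87.6, 99.5 and 90.2 to 106, 87.6 and 85.4 FPKM in BxPC-3. All induced CFPAC-1 libraries lay above every BxPC-3 library. With control 1 the change was 1.88 in CFPAC-1 and 0.00 in BxPC-3, with a difference of -1.88. With all 12 libraries HLA-E rose by 1.43 in CFPAC-1 (limma, adjusted p = 0.00259), and the difference was -1.43 (0.0349). HLA genes may share reads.

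Genes of DNA replication had changes of opposite sign in the lines. The list holds replication licensing, fork and nucleotide synthesis genes. Of 44 tested members, 0 had a positive change in CFPAC-1 against control 1 (median -1.22) and 43 had one in BxPC-3 (0.38), where 31.7% of all tested genes had a negative change in CFPAC-1 and a positive one in BxPC-3. The difference was positive for 44 of 44 with control 1 (median 1.61) and with all 12 (1.08), for 44 within numbers 1, for 39 within numbers 2 and 3, and for 44 after centring or quantile normalization, against 59.7% of all tested genes. The BxPC-3 side is weak, with 0 members past the test and a median of -0.08 within numbers 1 against 0.55 within numbers 2 and 3. The CFPAC-1 median was -0.64 with all 12, -1.51 within numbers 1 and -0.21 within numbers 2 and 3. The size of the CFPAC-1 fall therefore varied with the control used. For the difference 4 members passed on the positive side and 0 on the negative with all 12, beside 1.34% and 1.11% of all tested genes. In CFPAC-1 5 members fell against control 1, beside 0.669% of all tested genes, and 13 with all 12, beside 8.77%. MCM6, MCM10, POLE2 and PRIM1 passed for the difference with control 1, and RFC4, RRM1, TYMS and SLBP with all 12, so no member passed in both fits.

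MCM6, a subunit of the replicative helicase, shows the pattern. The CFPAC-1 controls had 36.7, 19.8 and 19.4 FPKM, against 12.1, 13.1 and 14.2 FPKM after starvation, and BxPC-3 had 14.2, 11.7 and 12.9 and then 16.8, 16.6 and 17.1 FPKM. Induced libraries lay below all controls in CFPAC-1 and above all controls in BxPC-3. MCM6 fell by 1.42 in CFPAC-1 (limma, adjusted p = 0.0134) and had 0.36 in BxPC-3 (0.358), with a difference of 1.78 (0.0397), or of 1.20 with all 12 (0.0697). Its promoter is shown since E2F factors, which time these genes, are known to bind TTTGGCGC and TTTCCCGC. Capitals mark a match to either on either strand in the window chr2:135876444-135876693 (minus strand, RefSeq on GRCh38.p14).
MCM6: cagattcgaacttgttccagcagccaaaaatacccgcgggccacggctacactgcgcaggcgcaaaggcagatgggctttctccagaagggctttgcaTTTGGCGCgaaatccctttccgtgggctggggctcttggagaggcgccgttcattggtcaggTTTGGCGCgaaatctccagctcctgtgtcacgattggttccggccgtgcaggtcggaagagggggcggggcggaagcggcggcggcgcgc
MCM6 holds 2 matches, while MCM10, POLE2 and PRIM1 hold none in the same window. Of all 27305 windows 1.96% hold a match, and of the 8822 of tested genes 3.22%.

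MCM10 (a replication initiation factor), POLE2 (a polymerase epsilon subunit) and PRIM1 (a primase subunit) had differences of 2.08, 1.49 and 1.69 with control 1. PCNA, the sliding clamp and the most abundant member, went from 176, 99.4 and 97.8 to 57.5, 83.6 and 81.3 FPKM in CFPAC-1 and from 180, 144 and 158 to 206, 265 and 265 FPKM in BxPC-3. No libraries overlapped in either line, and yet the difference of 1.86 missed the threshold (limma, adjusted p = 0.051). Outside the list, DNA2 (a nuclease of Okazaki fragments) and CLSPN (claspin of the replication checkpoint) passed in both fits. They were chosen after their values were seen. CLSPN went from 3.50, 2.74 and 2.45 to 0.731, 0.761 and 0.608 FPKM in CFPAC-1 and from 1.16, 0.465 and 0.909 to 1.45, 1.63 and 1.54 FPKM in BxPC-3, with differences of 1.88 (0.0419) and 1.67 (0.0153). The 46 genes of G2/M and mitosis lay the same way, with medians of -0.87 and 0.24 and a positive difference for 45 with control 1 and 46 with all 12. Their BxPC-3 median was -0.08 within numbers 1 and 0.41 within numbers 2 and 3, and their CFPAC-1 median was -1.5 and -0.71. With all 12, 21 members fell in CFPAC-1 and 0 rose, beside 8.77% and 7.85% of all tested genes. In that fit 7, KIF11 among them, passed for the difference on the positive side and 0 on the negative, beside 1.34% and 1.11%. KIF11, the motor of spindle pole separation, fell in CFPAC-1 (-1.38, 0.0404), had 0.31 in BxPC-3 (0.565), and passed for the difference with all 12 (1.96, 0.0153) but not with control 1 (0.0634). CKS2 and CDC20, the most abundant of that list, had 0.07 and 1.06 with control 1, neither past the test. CCND1, cyclin D1, had 0.98 with control 1 and 0.14 with all 12. In these bulk samples, fewer cycling cells and less RNA per cell cannot be told apart.

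**Figure D3:**
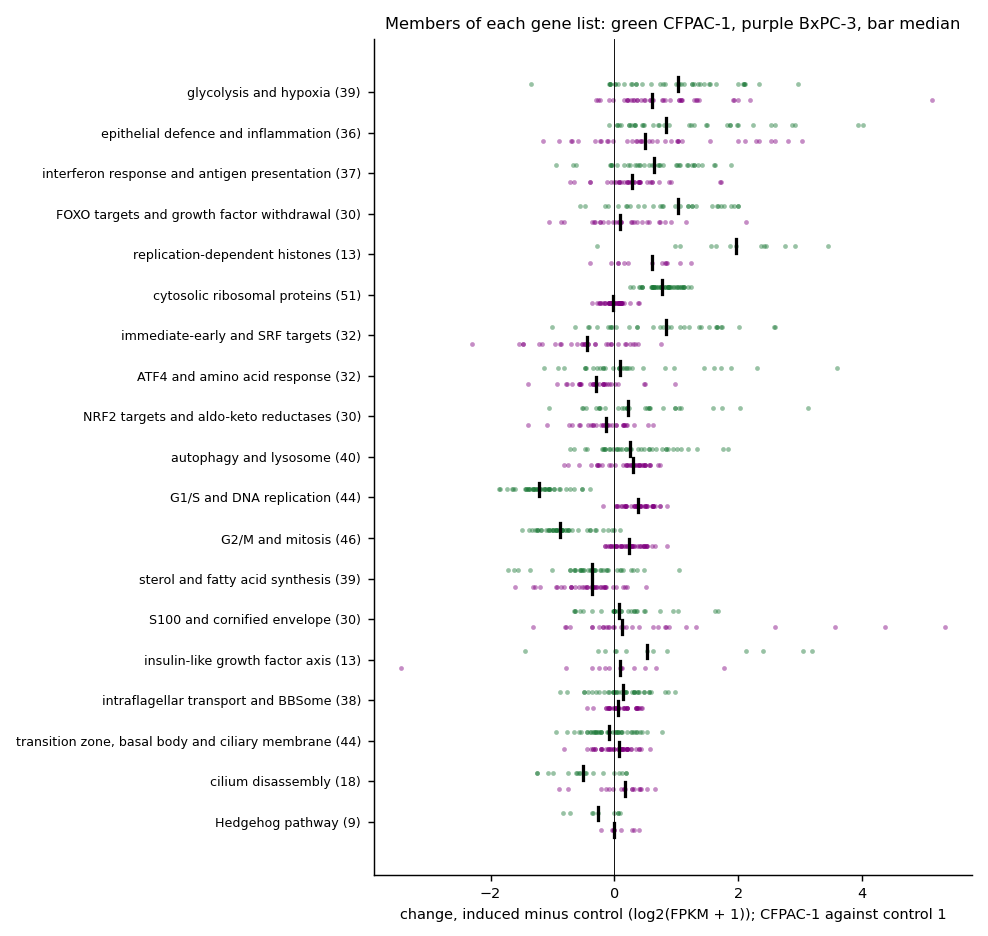
Change of each tested member of 19 gene lists, in log2(FPKM + 1), induced minus control; green points are CFPAC-1 against control 1, purple points BxPC-3, black bars list medians and numbers the tested members. The G1/S genes lie left of 0 in CFPAC-1 and almost all right of 0 in BxPC-3, the ribosomal protein genes lie right of 0 in CFPAC-1 and around 0 in BxPC-3, and the hypoxia genes lie mostly right of 0 in both.

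Responses limited to BxPC-3 were few. With control 1 they were SLC6A14 and CD14. SLC6A14 imports amino acids with broad specificity (chromosome X, 116436622 to 116461458). It went from 1.65, 1.02 and 1.06 to 6.55, 5.40 and 5.80 FPKM in BxPC-3 and was at most 0.0474 FPKM in CFPAC-1, with a difference of 1.59 in both fits (limma, adjusted p = 0.0466 and 0.0139). CD14 (chromosome 5, 140631728 to 140633701) is a receptor for bacterial lipopolysaccharide, best known from monocytes. It went from 2.18, 1.63 and 1.39 to 6.31, 7.06 and 6.64 FPKM in BxPC-3. CFPAC-1 had 0.372 FPKM in control 1, 4.22 and 3.97 FPKM in the other controls and 0.318 to 0.393 FPKM after starvation, and so its difference grew from 1.52 (0.0466) to 2.79 (0.0364) with all 12. Of the 12 leukocyte markers, 9 were under 1 FPKM in all libraries. In the fit of all 12, 20 genes were BxPC-3 only, and the 18 that rose were under 1 FPKM in every CFPAC-1 library, among them SPRR1B of the cornified envelope, at 36.6, 33.5 and 34.0 and then at 101, 80.0 and 83.0 FPKM.

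Among CFPAC-1 only genes with control 1, 12 of the 25 that rose were under 1 FPKM in every BxPC-3 library, and 3 of the 17 that fell. The median BxPC-3 change was 0.00 for those that rose and 0.30 for those that fell, of which 15 of 17 had a positive change in BxPC-3. MPZL1, a cell surface glycoprotein, is the gene that fell among the 4 that passed for the difference in every leave-out, and was chosen after its values were seen. The CFPAC-1 controls had 20.6, 7.88 and 2.51 FPKM, against 3.38, 2.73 and 3.17 FPKM after starvation, and BxPC-3 had 2.72, 1.79 and 2.06 and then 3.12, 2.87 and 2.74 FPKM. Control 3 lay below all induced CFPAC-1 libraries and control 1 far above them. The difference was 2.71 ± 0.27 (SE; limma, adjusted p = 0.00713) with control 1 and 1.41 (0.224) with all 12.

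The 10 opposite genes with control 1 comprise 7 up in CFPAC-1 with a negative BxPC-3 change and 3 the other way, and no BxPC-3 change among them passed on its own. S100P, a calcium-binding protein common in pancreatic cancer (chromosome 4, 6693069 to 6697170), went from 24.9, 2.16 and 3.01 to 70.7, 83.4 and 82.0 FPKM in CFPAC-1 and from 134, 267 and 236 to 117, 118 and 115 FPKM in BxPC-3. The lines thus drew closer in level, and the difference was -2.42 with control 1 (limma, adjusted p = 0.0466) and -4.32 with all 12 (0.0344). PAQR4, a membrane protein of ceramide metabolism (chromosome 16, 2969245 to 2973489), gave the largest positive difference of the 10 at 3.12 (0.0419). It went from 46.0, 13.2 and 5.72 to 20.7, 13.2 and 11.1 FPKM in CFPAC-1, where control 2 and 3 overlap the induced libraries, and from 4.04, 6.58 and 2.54 to 13.3, 13.8 and 14.1 FPKM in BxPC-3. With all 12 it was 1.61 (0.232). The change of PAQR4 passed in neither line on its own in either fit. With control 1 the same held for MTERF3 and PRIM1, the other genes of the 10 with a positive difference.

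SQSTM1 (chromosome 5, 179806398 to 179838078) went from 123, 249 and 241 to 291, 339 and 303 FPKM in CFPAC-1 and from 115, 155 and 142 to 73.9, 100 and 102 FPKM in BxPC-3, with no overlap of libraries in either line. WIPI1 (chromosome 17, 68420948 to 68457513) was at 0.979, 5.95 and 6.22 and then at 6.56, 5.10 and 5.56 FPKM in CFPAC-1, and at 3.12, 4.18 and 5.20 and then 2.56, 1.53 and 2.10 FPKM in BxPC-3. ITPKC, which phosphorylates inositol trisphosphate (chromosome 19, 40717103 to 40740860), was at 2.16, 10.5 and 10.8 and then at 10.4, 7.73 and 7.70 FPKM, and at 24.7, 46.1 and 40.6 and then 21.1, 18.4 and 17.9 FPKM. In WIPI1 and ITPKC only control 1 was far below the induced CFPAC-1 libraries. The ITPKC difference was -2.47 with control 1 (limma, adjusted p = 0.0448) and -1.22 with all 12 (0.245). MTERF3, a mitochondrial transcription regulator, was opposite in both fits, with differences of 1.54 (0.0466) and 1.45 (0.0153). It was at 10.6, 10.2 and 8.96 and then at 4.64, 5.71 and 5.28 FPKM in CFPAC-1, and at 3.07, 2.54 and 2.60 and then 4.11, 5.26 and 5.05 FPKM in BxPC-3, so that the level in BxPC-3 came up to that of starved CFPAC-1.

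**Figure D4:**
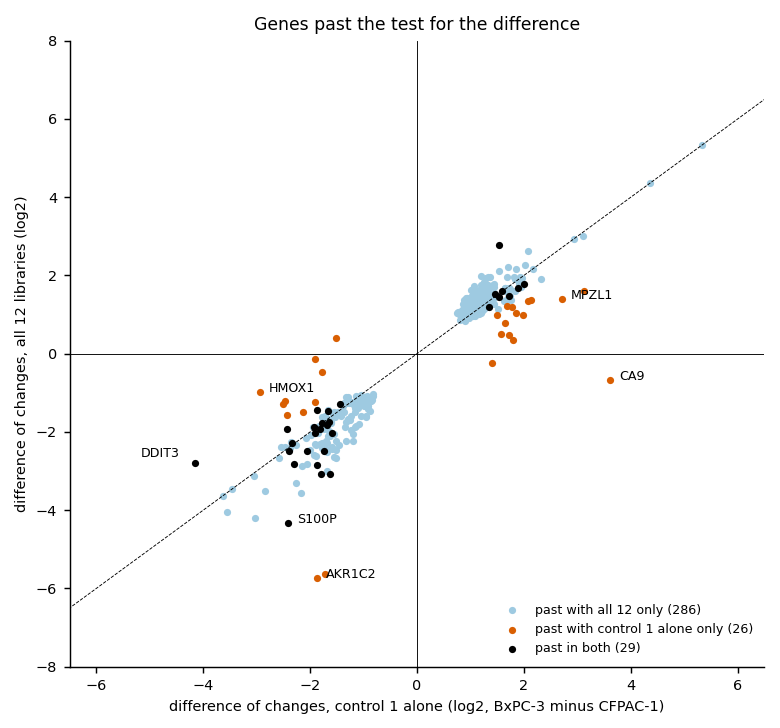
Difference of changes (BxPC-3 minus CFPAC-1, log2(FPKM + 1)) with control 1 as the only CFPAC-1 control (x axis) and with all 12 libraries (y axis) for every gene past the test in either fit; the dashed line marks equal values. The 29 genes past in both have the same sign in each, and CA9 is among the 3 genes of control 1 calls whose sign differs with all 12.

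The fits were compared on the genes they called. Of the 315 genes past with all 12 libraries, 0 had the other sign with control 1 alone, 0 came under 0.5 and 259 stayed at 1 or more. Of the 55 past with control 1, 3 had the other sign with all 12. The genes counted were chosen for passing and the fits share 10 libraries, so these counts are no check of the sign. Values that turned with the control, such as those of CA9, SLPI, IFITM3 and SCD, are given with their genes.

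No member of the 4 cilium lists passed for the difference, with control 1 or with all 12, where 0.428% and 2.45% of all tested genes did. In CFPAC-1 alone no member changed against control 1, where 1.73% of all tested genes did. In lists of this length a count of 0 lies near these shares and is no result about cilium genes. With all 12, 1 of the transport genes rose and 2 fell, and 5 transition zone, 5 disassembly and 1 Hedgehog gene fell, where 7.85% and 8.77% of all tested genes rose and fell. Among those that fell were KIF3B and PRKACA (-1.07 and -0.70, limma, adjusted p = 0.024 and 0.0343). The median differences with control 1 were -0.07 for 38 genes of intraflagellar transport and the BBSome, which carry cargo along the cilium, 0.16 for 44 of the transition zone, basal body and membrane, 0.64 for 18 of cilium disassembly and 0.36 for 9 of the Hedgehog pathway, beside 0.13 over all genes. With all 12 they were 0.16, 0.26, 0.66 and -0.12, beside 0.16, so the sign of the transport and Hedgehog medians turned with the control. AURKA, PLK1, NEK2, KIF2C, BUB1B and TTK of the disassembly list also stand on the list of G2/M and mitosis genes. The median difference of that list was 1.12 with control 1 and 1.31 with all 12, so the disassembly values are not those of cilium genes alone. The members of highest level were WDR34, a dynein intermediate chain of transport, with 1.22 (95% interval -0.07 to 2.51), and KIF3B, of the kinesin that moves outward, with 0.66 (-0.17 to 1.48). EHD1 and RAB11A, of ciliary vesicle traffic, had -1.26 (-2.94 to 0.43) and -0.10 (-0.62 to 0.42). PRKACA, the kinase that restrains GLI factors, had 0.64 (-0.01 to 1.29). TRIP6 and CALM2, the most abundant members of the disassembly list, had 0.45 (-0.34 to 1.25) and 0.28 (-0.59 to 1.15), and SPOP, which targets GLI proteins for degradation, had 0.24 (-0.55 to 1.02). The intervals leave room for differences of several-fold in some of these genes.

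Of the other programmes, the 30 FOXO targets had medians of 1.02 in CFPAC-1 and 0.10 in BxPC-3 with a difference of -0.63 with control 1. With all 12 the median difference was -0.57. BTG1, BTG2 and TSC22D3 passed for it in that fit alone, all on the negative side, beside 1.11% of all tested genes. TXNIP, a brake on glucose uptake and the list's most abundant member, had almost equal changes against control 1 (1.99 and 2.13, neither past the test), and CDKN1A, the p21 brake on cyclin-dependent kinases, had 1.93 and -0.33 with a difference of -2.26 (0.133). Immediate-early and SRF targets had 0.82 and -0.44 with control 1, and -0.38 in CFPAC-1 with all 12, so their CFPAC-1 sign turned with the control. Their BxPC-3 median was 0.13 within numbers 1 and -0.5 within numbers 2 and 3, so its sign turned as well. The cytoplasmic actins ACTB and ACTG1 had differences of 0.22 and -0.32 with control 1. Sterol and fatty acid genes had -0.36 in each line, with a difference of -0.05 that became 0.71 with all 12. SCD, a fatty acid desaturase, had -1.29 with control 1 and 1.06 with all 12, and FASN, fatty acid synthase, 0.90 and 1.82, none past the test. S100 and cornified envelope genes had 0.08 and 0.13, with a median difference of 0.24 with control 1 and -0.12 with all 12. It was 0.66 within numbers 1 and -0.44 within numbers 2 and 3, so its sign turned. With all 12, 4 of 30 members rose in BxPC-3 and 0 fell, beside 0.295% and 0.0389% of all tested genes. In CFPAC-1 5 rose and 1 fell, beside 7.85% and 8.77%. For the difference 3 were positive and 1 negative, beside 1.34% and 1.11%. Insulin-like growth factor genes had 0.52 and 0.09. IGFBP1 rose in CFPAC-1 against control 1 (3.19, limma, adjusted p = 0.0453) and was at most 1.92 FPKM in BxPC-3, with a difference of -2.69 that was not past the test (0.158).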

How the data were processed

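RNA-seq of 12 libraries was used as log2(FPKM + 1) per gene, which is what the authors deposited per the file headers. FPKM comes from StringTie after FastQC on GRCh38, per the submitters' processing notes, which give no versions here. No source used here gives the aligner, annotation or strand setting, so antisense and overlapping genes cannot be told apart. Total RNA was extracted with TRIzol, per the labels' protocols. Values were not counts: low values showed steps of single reads in 11 libraries, with relative depths of 0.633 to 1, but whole reads were not recovered, so absolute depth is unknown and no count test was run. FPKM summed to between 258299 and 315377 per library, and 11.6% to 34.0% of it lay in mitochondrially encoded genes.

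The 12860 genes with FPKM of at least 1 in 3 libraries were fitted by group means in limma 3.58.1 (R 4.3.3), with Benjamini-Hochberg adjustment over all of them and a threshold of 0.05. Residual degrees of freedom were 8 with all 12 libraries and 6 with CFPAC-1 control 1 as the only CFPAC-1 control. Changes on this scale understate those of low genes. The script was tested on simulated data. Alternatives were a replicate block, centring, quantile normalization, no filter, a mean FPKM of at least 5, a pseudocount of 0.1, limma's trend and robust settings, numbers 2 and 3 alone, and each library left out. Named genes were up to 8 per direction with the largest difference past in both fits, shared genes, the 6 opposite genes of largest difference, and the 2 most abundant members of each list. A gene that this rule names is not reported here. Members and gene lists were chosen with earlier results of these data known.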

Additional observations from a re-analysis of the deposited data

Results flagged for a closer look

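In these genes the change under starvation differed between the lines by limma's test of the difference itself, with CFPAC-1 control 1 as the only CFPAC-1 control. In log2 units, BxPC-3 change minus CFPAC-1 change, the values were 3.12 for PAQR4, 1.59 for SLC6A14, 1.54 for MTERF3 and 1.52 for CD14. On the other side they were -4.16 for DDIT3, -2.51 for WIPI1, -2.47 for ITPKC, -2.43 for HIST2H2BE, -2.42 for S100P, -2.40 for HIST1H2BG, -2.30 for GAST, -2.05 for GAS5, -1.93 for NOP53, -1.91 for EFEMP2 and -1.90 for SQSTM1. With all 12 libraries PAQR4, WIPI1, ITPKC and SQSTM1 did not pass. GAST and HIST1H2BG reached 1 FPKM in the induced CFPAC-1 libraries alone. They were tested only because they are high there, and their values are a description.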

How the results depend on the processing

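No named difference that passed the test changed sign within its fit. With all 12 libraries, the 315 differing genes became 162 at a mean FPKM of at least 5, 163 with a pseudocount of 0.1, 8023 in numbers 2 and 3 alone and 55 with CFPAC-1 control 1 alone, and ranged from 0 (without BxPC-3 control 2) to 4148 (without CFPAC-1 control 1) over the leave-outs. The 7 shared genes became 4, 9, 2162 and 6 under these settings and ranged from 0 to 37. The 223 CFPAC-1 only genes became 111, 93, 3825 and 42 and ranged from 0 to 3505. The 20 BxPC-3 only genes became 7, 10, 1001 and 2, 13 after centring and 36 with no filter, and ranged from 0 to 110. The 65 opposite genes became 40, 58, 750 and 10, 26 with no filter, and ranged from 0 to 350.

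With control 1 alone, the 55 differing genes became 9 at a mean FPKM of at least 5, 707 with no filter, 22 with a pseudocount of 0.1 and 4 with the replicate block, and ranged from 4 to 632 over the leave-outs. The 6 shared genes became 6, 4, 2 and 4 and ranged from 0 to 36. The 42 CFPAC-1 only genes became 7, 632, 15 and 2 and ranged from 2 to 214. The 2 BxPC-3 only genes became 0, 26, 2 and 1, 0 after centring and 1 with limma's trend and robust settings, and ranged from 1 to 129. The 10 opposite genes became 1, 19, 5 and 1 and ranged from 0 to 256. The cause of these shifts was not tested.

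Replicate numbers tied some libraries and not others. Over 18 same-numbered pairs the correlation of deviations ran from -0.08 to 0.287 and 9 were over 0.1, among them all between the controls of the lines and all between their induced libraries, but none between CFPAC-1 control and induced. Only 2 libraries correlated best with their own number. Since not every pair was over 0.1, the numbers were not taken to pair the samples. The replicate block gave 306 differing genes with all 12 and 4 with control 1, where of the 15 differences listed above with control 1 that of DDIT3 passed (adjusted p = 0.0391 in limma) and the other 14 had adjusted p of 0.103 to 0.116. With all 12 and the block DDIT3, S100P and C3 did not pass (0.0526, 0.051 and 0.0526). Depth is unknown, so the precision of low values is too.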
